A study of Mus musculus with 6 samples.

Results

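The genes described here are 40 genes of Schwann cells, myelin and glia, a list drawn up with earlier results of the same arrays known. A probe set was used where the platform annotation pairs it with exactly 1 gene symbol, and the brightest such probe set by the mean of 6 arrays stood for its gene. By that rule 39 of the 40 were measured, among 19938 named genes in all, and Prx, the gene of the Schwann cell membrane protein periaxin, was not analysed here. The arrays came from Melan-Ink4a cells, an immortal melanocyte line from the skin of C57BL/6J mice, compared as 3 samples given NRG1 and 3 untreated samples on Affymetrix Mouse Gene 1.0 ST arrays. The first group received 10 nM NRG1-b1, the EGF-like growth factor neuregulin, for 21 days. The untreated group carries no such description in its titles and source names, although one treatment text stands with all 6 samples, and no matching culture time is given for it. Both groups are null for the Ink4a-ARF1 locus, and both were grown in 200 nM TPA, a phorbol ester that activates protein kinase C, and 200 pM cholera toxin, which raises cyclic AMP, with RNA taken at 90% confluence. All samples are of a single line, and nothing says whether the 3 samples of a group were separate cultures, so each p-value reflects the scatter among these 6 arrays, which may be purely technical.

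Schwann cells, the glia of peripheral nerve, come from the neural crest through a precursor stage from which melanocytes of the skin can also arise. NRG1 on axons acts through ERBB3 and ERBB2 on Schwann cells, where it sets their survival, their division and the thickness of the myelin they make. Myelination itself is driven by the transcription factors SOX10, POU3F1 and EGR2, and it requires cyclic AMP signals, structural myelin proteins and galactolipids. Most of the genes below are known from Schwann cells, while a few, such as Mog and Mobp, belong to oligodendrocytes, the myelinating glia of the brain.

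Values are the deposited log2 expression values, and differences are NRG1 minus untreated on that scale. The array medians over all probe sets were 6.99 to 7.04 with NRG1 and 7.01 to 7.07 untreated, and arrays correlated at 0.996 to 0.997 within a group and at 0.981 to 0.986 between groups across genes. As a guide to the signal of a gene that is not expressed, the 1027 olfactory receptor genes on the array had a median level of 4.79 and a 95th percentile of 6.72. Of these genes, 7 were called higher and 40 lower, with a median difference of -0.068, so small falls inside that range also occur among genes of this kind. Probe sets differ in how strongly they bind, so a level inside that range does not show that a transcript was missing. The labelled cell type was borne out by its markers, since all 11 melanocyte genes examined, from Mitf to Pmel, lay above that percentile. In RNA from whole cultures, fewer cells of a kind and less RNA per cell cannot be told apart.

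Of the 39 measured genes, 12 rose with NRG1, 1 fell and 26 did not pass the test (limma, Benjamini-Hochberg adjusted p under 0.05 over all genes). Over all genes tested, 20.9% passed, 12.3% as rises and 8.56% as falls. That split depended on scaling, with 2461 genes higher and 1707 lower as deposited and 2257 higher and 2396 lower after quantile normalization, while the calls of the 39 genes stayed at 12 and 1. The median difference of the list was 0.02 on the log2 scale, against -0.029 for all genes tested. Of the 12 rises, 7 were among the 9 genes listed as progenitor and precursor markers. That list is mixed, since it also holds Matn2, Megf10, Gfap and S100b, which do not mark glial progenitors alone. Fabp7 and Gfap were the least stable of the 7. The largest of the 12 rises belonged to the secreted protein gene Lgi4 and the proteolipid gene Gpm6b. Neither the myelin transcription factors nor the group of myelin lipid enzymes and other glial enzymes contained a called gene. At an unadjusted p under 0.05 there were 13 genes of the 39 higher and 4 lower, against 3321 and 3057 of all 19938. The values of the NRG1 and untreated samples did not overlap for 18 of the 39, where 36.7% of all genes showed no overlap. With 3 arrays against 3, an exact permutation test of any 1 gene cannot go below p = 0.1. Against a minimum change of 1.2-fold, 7 of the 39 passed, all of them higher, and 6.14% of all genes did.

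**Figure D1:**
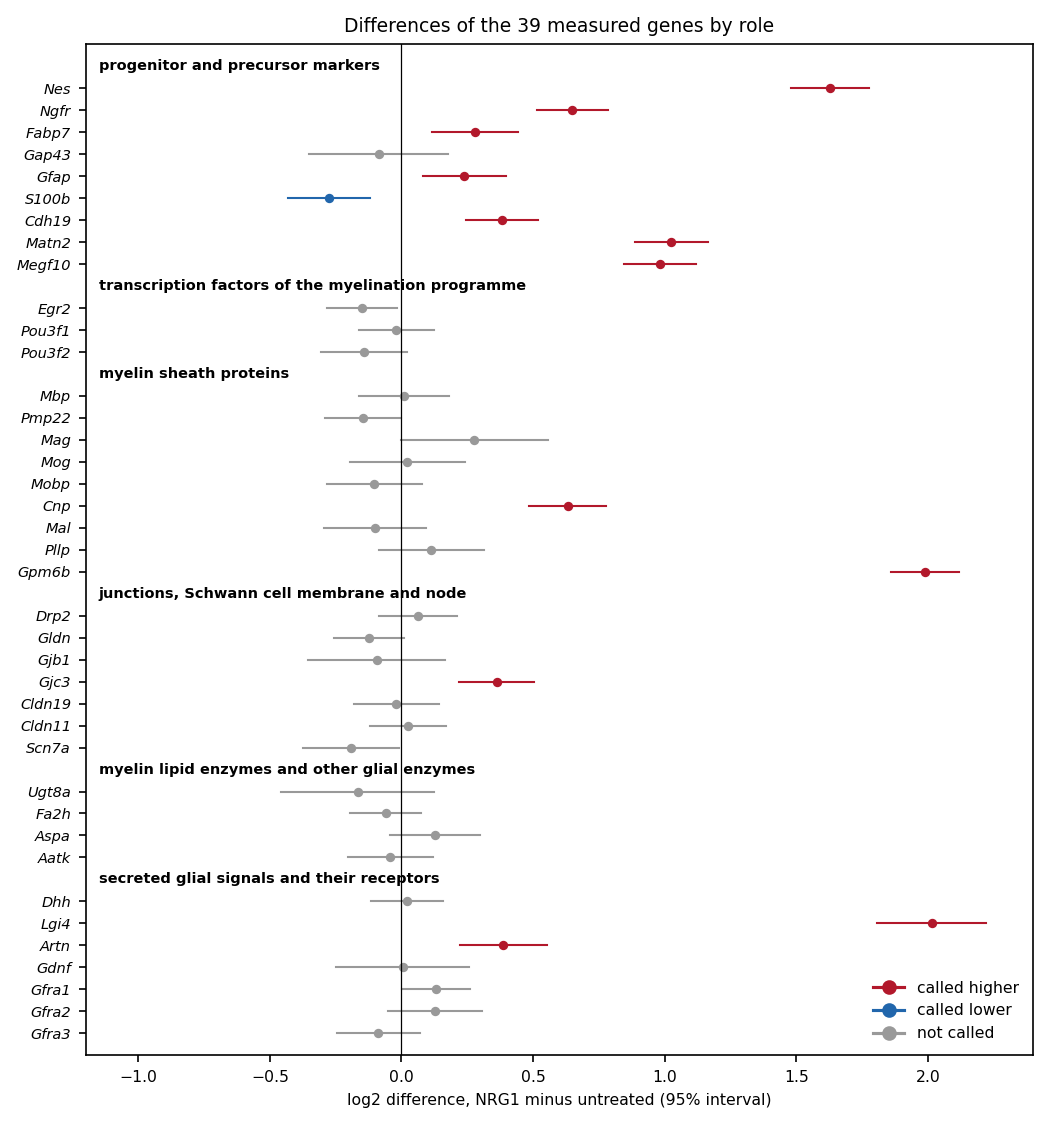
Difference of each of the 39 measured genes, NRG1 minus untreated, on the log2 scale (x axis), grouped by role down the page. Points are limma estimates from 3 arrays per group and lines are 95% intervals. The 12 red genes rose, S100b in blue fell, and the 26 grey genes were not called.

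Among markers of neural and Schwann cell progenitors, Nes showed the clearest rise. Nes encodes nestin, the intermediate filament of neural progenitors. It was at 9.73, 9.67 and 9.68 with NRG1 and at 8.08, 8.16 and 7.97 untreated. Every treated value thus stood well over 1 log2 unit above every untreated one. The difference was 1.63 ± 0.067 (SE), 3.09-fold (limma, adjusted p = 1.10e-07), the 76th largest rise of all genes tested.

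Matn2, which encodes a matrilin of the extracellular matrix that Schwann cells secrete, was at 10.46, 10.57 and 10.48 with NRG1 and at 9.46, 9.53 and 9.44 untreated. Megf10, an engulfment receptor gene of astrocytes and muscle progenitors, was at 10.96, 10.92 and 10.95 with NRG1 and at 9.95, 10.04 and 9.90 untreated. Both genes stood about a doubling higher in all treated samples, with little spread inside either group. The rises were 2.04-fold for Matn2 and 1.97-fold for Megf10 (limma, adjusted p = 1.36e-06 and 1.71e-06).

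Ngfr, the low-affinity neurotrophin receptor gene that marks neural crest cells and immature or injured Schwann cells, was at 8.80, 8.72 and 8.78 with NRG1 and at 8.07, 8.17 and 8.12 untreated. It rose by 0.65 ± 0.060 (SE) on the log2 scale (limma, adjusted p = 2.84e-05). Cdh19, a cadherin gene typical of Schwann cell precursors, was at 10.60, 10.58 and 10.67 with NRG1 and at 10.30, 10.21 and 10.20 untreated. The groups were separate for both genes, and the rise of Cdh19 was smaller, at 0.38 ± 0.061 (SE; limma, adjusted p = 0.00125).

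Fabp7 and Gfap rose least. Fabp7 encodes the fatty acid-binding protein of radial glia and Schwann cell precursors. It was at 6.78, 6.81 and 6.70 with NRG1 and at 6.51, 6.35 and 6.59 untreated, a rise of 0.28 (limma, adjusted p = 0.0208). Gfap, the intermediate filament gene of astrocytes and non-myelinating Schwann cells, was at 6.62, 6.61 and 6.78 with NRG1 and at 6.51, 6.35 and 6.44 untreated, a rise of 0.24 (limma, adjusted p = 0.0375). The 6-array means of both genes were below the 95th percentile of the olfactory receptor genes. The Fabp7 call ended under 5 of 15 alternative settings, among them the fits without NRG1 replicate 1, NRG1 replicate 2 or untreated replicate 1. The Gfap call ended under 8 of 15, among them every fit without a single array other than untreated replicate 1.

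S100b and Gap43 were the genes of this list that did not rise. S100b, whose product binds calcium in glia and in pigment cells, was at 9.45, 9.39 and 9.28 with NRG1 and at 9.60, 9.74 and 9.60 untreated. It was the only gene of the list that fell, by 0.27 on the log2 scale (limma, adjusted p = 0.0185), and its call ended without NRG1 replicate 3, with all probe sets tested, and against the minimum change. Gap43, a growth cone protein gene that immature Schwann cells also express, was at 6.00, 6.27 and 6.18 with NRG1 and at 6.22, 5.99 and 6.50 untreated, with overlapping groups and a difference of -0.09 (95% interval -0.35 to 0.18).

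**Figure D2:**
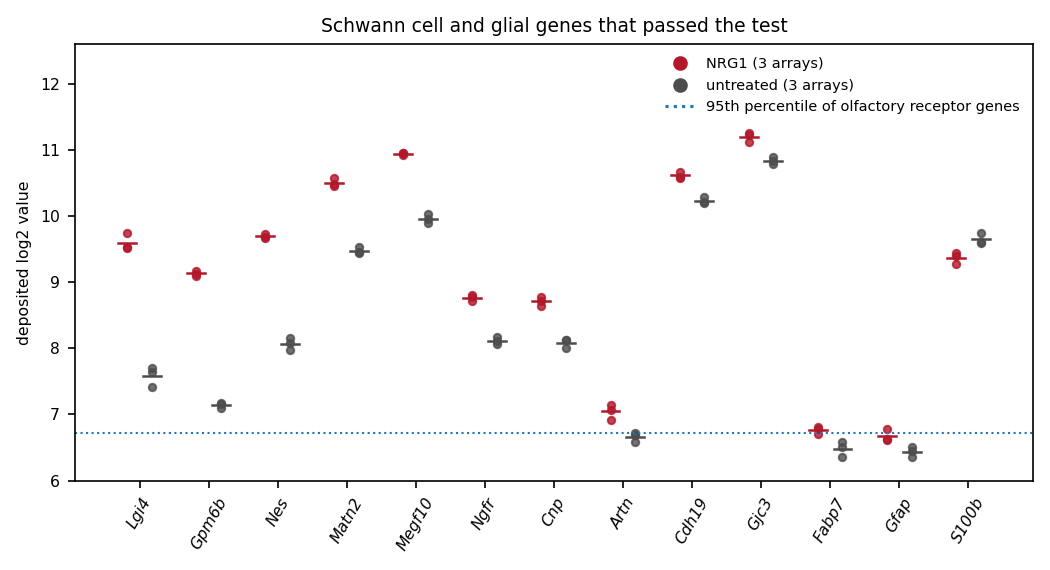
Deposited log2 value (y axis) of the 13 called genes in each of 3 NRG1 arrays (red, left) and 3 untreated arrays (grey, right), with short bars at the group means, ordered by difference. The dotted line is the 95th percentile of olfactory receptor genes, 6.72, near which Artn, Fabp7 and Gfap lie, and in none of the 13 genes do the groups overlap.

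Of 9 measured structural genes of the myelin sheath, 2 rose, 0 fell and 7 were not called (limma). Their median difference was 0.02, and 3 genes had an unadjusted p under 0.05 (limma). Over all genes tested, 20.9% were called, 12.3% as rises, so 2 of 9 is close to the share of all genes. Above the olfactory 95th percentile were 5 of the 9, and 2 of those 5 were called, against 30.2% of all genes above it. Gpm6b, a four-pass membrane protein gene related to the main proteolipid of brain myelin, was at 9.10, 9.13 and 9.17 with NRG1 and at 7.10, 7.16 and 7.17 untreated. The 6 values formed a pair of tight clusters close to 2 log2 units apart. It rose by 1.99 ± 0.058 (SE), 3.97-fold (limma, adjusted p = 1.15e-08), the 39th largest rise of all genes tested. Cnp encodes a cyclic nucleotide phosphodiesterase of non-compact myelin. It was at 8.72, 8.78 and 8.65 with NRG1 and at 8.0, 8.13 and 8.12 untreated, 1.55-fold higher (limma, adjusted p = 6.50e-05).

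The proteins most specific to compact and brain myelin showed no called difference. Mbp, the myelin basic protein gene, was at 7.01, 7.11 and 7.07 with NRG1 and at 7.07, 6.90 and 7.18 untreated, a difference of 0.01 (95% interval -0.16 to 0.18). Pmp22, a four-pass protein of peripheral myelin, was at 10.95, 11.06 and 10.98 with NRG1 and at 11.14, 11.22 and 11.07 untreated. Its treated values lay just below the untreated ones without passing the test (difference -0.15, 95% interval -0.29 to -0.0011; limma, adjusted p = 0.153), and 1 of 16 alternatives, an intensity trend with a robust prior, called it lower. Mag, the adhesion molecule gene of the inner myelin membrane, was at 6.56, 6.90 and 6.51 with NRG1 and at 6.43, 6.14 and 6.58 untreated, and this wide spread left a 95% interval of -0.0031 to 0.56. The differences were 0.02 for Mog and -0.10 for Mobp, whose products sit in oligodendrocyte myelin. They were -0.10 for Mal and 0.11 for Pllp, both genes of small membrane proteins of myelin lipid rafts. The groups overlapped in all 4.

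The transcription factors that switch on myelination were not higher with NRG1. Of the 3 measured, limma called 0, with 1 at an unadjusted p under 0.05. Egr2, the zinc finger gene required for peripheral myelin, was at 6.63, 6.68 and 6.67 with NRG1 and at 6.75, 6.81 and 6.87 untreated. Its treated values were the lower ones in every pair, with a difference of -0.15 (95% interval -0.28 to -0.016; limma, adjusted p = 0.112). The POU factor genes Pou3f1 and Pou3f2, which act with and before Egr2 in the Schwann cell, differed by -0.02 and -0.14 with overlapping groups. Egr2 and Pou3f2 had 6-array means of 6.73 and 6.77, at the edge of the olfactory receptor range. A second probe set of Pou3f2 had a mean of 3.48 with NRG1 and 3.53 untreated.

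In the group of junction, membrane and node genes, 1 of 7 measured rose, 0 fell and 6 were not called, and 2 had an unadjusted p under 0.05 (limma). The share of rises over all genes tested was 12.3%. Gjc3, a connexin gene of Schwann cells and oligodendrocytes, was at 11.12, 11.25 and 11.23 with NRG1 and at 10.89, 10.83 and 10.80 untreated. It rose 1.28-fold, with no overlap (limma, adjusted p = 0.00237). Gjb1, the connexin gene mutated in X-linked Charcot-Marie-Tooth neuropathy, was at 6.45, 6.85 and 6.40 with NRG1 and at 6.51, 6.68 and 6.79 untreated, a difference of -0.09 (95% interval -0.36 to 0.17). The connexins thus differed in outcome within this list, but the difference between them was not tested. The claudin genes Cldn19 and Cldn11, which seal the layers of myelin, differed by -0.02 and 0.03. Drp2, which encodes a periaxin-bound dystrophin relative, differed by 0.06. Gldn, the gene of the gliomedin that gathers sodium channels at nodes, and Scn7a, a sodium channel gene of non-myelinating Schwann cells, had the lower values in all treated samples, by -0.12 and -0.19, and neither was called (limma, adjusted p = 0.191 and 0.134). Scn7a was at 4.40 to 4.54 with NRG1 and at 4.54 to 4.83 untreated, in the middle of the olfactory receptor range.

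Enzyme genes of myelin lipids and other glial enzyme genes stayed within the spread of the replicates. None of the 4 measured was called by limma, and 0 had an unadjusted p under 0.05. Ugt8a, which encodes the enzyme that makes galactosylceramide, was at 5.22, 5.36 and 5.10 with NRG1 and at 5.54, 5.05 and 5.59 untreated. Untreated replicate 2 lay below the other untreated arrays, and without it the difference was -0.34 and called (limma, adjusted p = 0.0221), against -0.17 with all arrays. Fa2h, the fatty acid hydroxylase gene of myelin sphingolipids, differed by -0.06, Aspa, the aspartoacylase gene of oligodendrocytes, by 0.13 and the glial and neuronal kinase gene Aatk by -0.04. The groups overlapped for all of them. Ugt8a, Fa2h and Aspa had 6-array means of 5.31, 6.45 and 6.27, inside the olfactory receptor range.

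Of 7 secreted glial signals and receptors, 2 rose, 0 fell and 5 were not called, and 3 had an unadjusted p under 0.05 (limma). Rises made up 12.3% of all genes tested. Lgi4 encodes a protein that Schwann cells secrete and need for normal axon sorting and myelination. It was at 9.75, 9.51 and 9.53 with NRG1 and at 7.64, 7.71 and 7.41 untreated. All treated values lay more than 1.5 log2 units above all untreated ones. The rise of 2.01 ± 0.093 (SE) was 4.04-fold (limma, adjusted p = 2.13e-07) and the 37th largest of all genes tested.

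Adam23 and Adam22 encode membrane proteins that LGI family members bind. Adam23 was at 9.22, 9.30 and 9.31 with NRG1 and at 7.30, 7.49 and 7.36 untreated, 3.72-fold higher (limma, adjusted p = 4.35e-08). Adam22, the receptor of LGI4 in nerve and a gene singled out after its values were seen, was at 5.33, 5.28 and 5.32 with NRG1 and at 5.55, 5.61 and 5.86 untreated. Its difference was -0.36 (limma, adjusted p = 0.00995), but both groups lay inside the olfactory receptor range, so no direction is read from it beside Adam23.

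Artn, the artemin gene of the GDNF family, was at 7.15, 7.07 and 6.92 with NRG1 and at 6.68, 6.58 and 6.71 untreated. It rose 1.31-fold without overlap (limma, adjusted p = 0.00391), and its untreated mean of 6.66 was below the olfactory 95th percentile while its NRG1 mean of 7.05 was above it. The receptor genes Gfra1, Gfra2, Gfra3 and Ret were not called. Gfra3, the co-receptor gene for artemin, was at 7.19, 7.14 and 7.24 with NRG1 and at 7.31, 7.15 and 7.37 untreated, and Ret, the shared signalling receptor gene, was at 6.47, 6.36 and 6.55 with NRG1 and at 6.60, 6.49 and 6.67 untreated. Both had overlapping groups, with differences of -0.09 and -0.12 (limma, adjusted p = 0.452 and 0.29). The means of Ret, 6.46 with NRG1 and 6.59 untreated, were inside the olfactory receptor range, so its missing call does not show an unchanged transcript. Gfra1 was at 7.11, 7.08 and 7.07 with NRG1 and at 6.96, 6.91 and 6.99 untreated, separate by a small margin and not called (limma, adjusted p = 0.145). Gfra2, the co-receptor gene for neurturin, differed by 0.13 and Gdnf itself by 0.01, with overlap in both. A further list held 7 measured genes of family ligands, receptors and co-receptors, Ret and some adhesion and proteoglycan genes among them. Of these, 0 rose and 1 fell, with 2 at an unadjusted p under 0.05 (limma). The fall was that of the GDF15 receptor gene Gfral, by 0.25. Its means were 4.62 with NRG1 and 4.87 untreated, in the middle of the olfactory receptor range.

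Dhh, the hedgehog ligand gene of Schwann cells that organises the sheath around nerve bundles, was at 6.53, 6.51 and 6.60 with NRG1 and at 6.52, 6.48 and 6.58 untreated, a difference of 0.02 (95% interval -0.12 to 0.16). In the rest of the hedgehog pathway, 2 of 12 genes rose and 3 fell, with a median difference of -0.05. The shares over all genes tested were 12.3% and 8.56%. Gli3, a transcription factor gene of the pathway, was at 10.30, 10.27 and 10.20 with NRG1 and at 9.37, 9.43 and 9.27 untreated, a rise of 0.90 (limma, adjusted p = 5.20e-06), and the signal transducer gene Smo rose by 0.26. Among genes of proteins that bind hedgehog ligands, Gas1 fell by 0.82, Boc by 0.33 and the receptor Ptch1 by 0.20, while Cdon (-0.12) and Hhip (0.06) had overlapping groups at levels inside the olfactory receptor range and were not called. Gli1, whose transcription is a common readout of the pathway, differed by -0.04 (limma, adjusted p = 0.753). No state of the pathway is read from Gli1 alone, beside the called fall of Ptch1 (limma, adjusted p = 0.0269). Of 7 measured neurotrophin and receptor genes besides Ngfr, Maged1, whose product binds the low-affinity receptor, rose by 0.30, and Sort1, the sortilin gene whose product pairs with it, fell by 0.32. The kinase receptor genes Ntrk2 and Ntrk3 had differences of -0.03 and 0.02 at levels inside the olfactory receptor range.

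**Figure D3:**
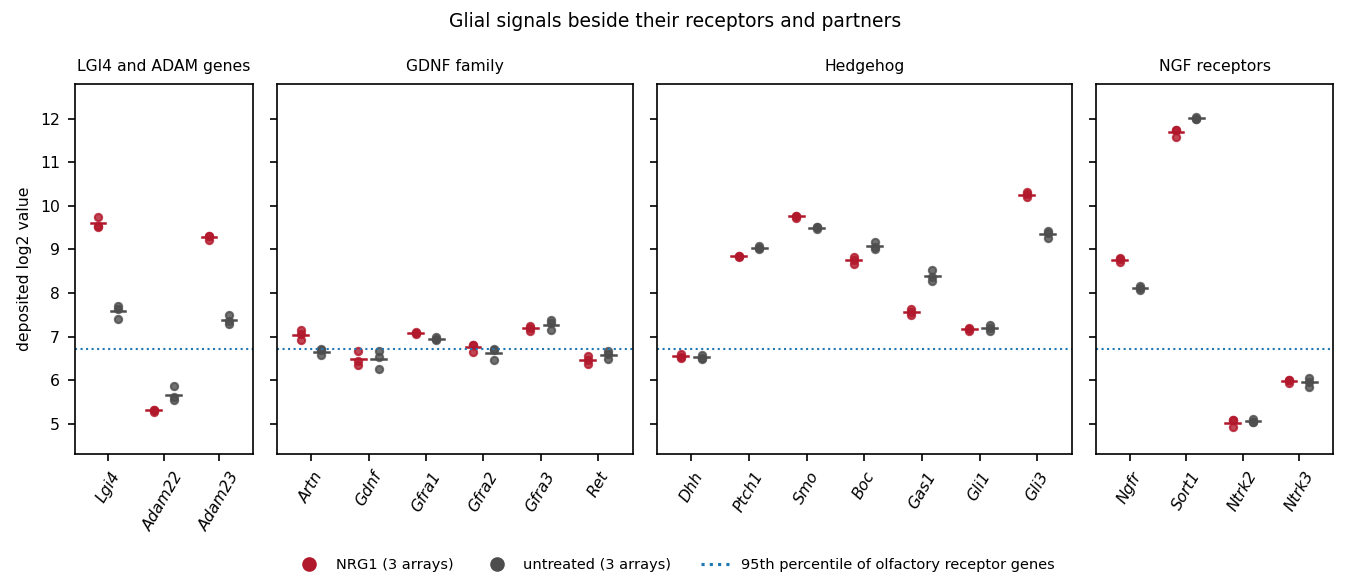
Deposited log2 value (y axis) in each NRG1 array (red, left) and each untreated array (grey, right) for glial signal genes and their receptors or partners, in 4 panels, with short bars at the group means. Lgi4 and Adam23 rose by 2.01 and 1.90, while Artn rose by 0.39 beside Gfra3 and Ret, whose groups overlap; the dotted line is the 95th percentile of olfactory receptor genes, 6.72.

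The genes also differed in signal. Of the 39 genes, 22 had a 6-array mean above the 95th percentile of the olfactory receptor genes and 17 did not. Of all 19938 genes tested, 11862 were above it. The lower class held Gap43, Mag, Mog, Mobp, Pllp, Drp2, Gldn, Gjb1, Scn7a, Ugt8a, Fa2h, Aspa, Dhh, Gdnf and Gfra2, none of them called, beside Fabp7 and Gfap. Array signals are compressed near background, so differences in these genes could be understated. Called were 11 of the 22 genes above that level and 2 of the 17 others. Among all genes tested, 30.2% of those above that level were called and 7.18% of those below it. Over the 26 genes that were not called, the 95% intervals of the differences reached from -0.46 at the lowest to 0.56 at the highest.

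**Figure D4:**
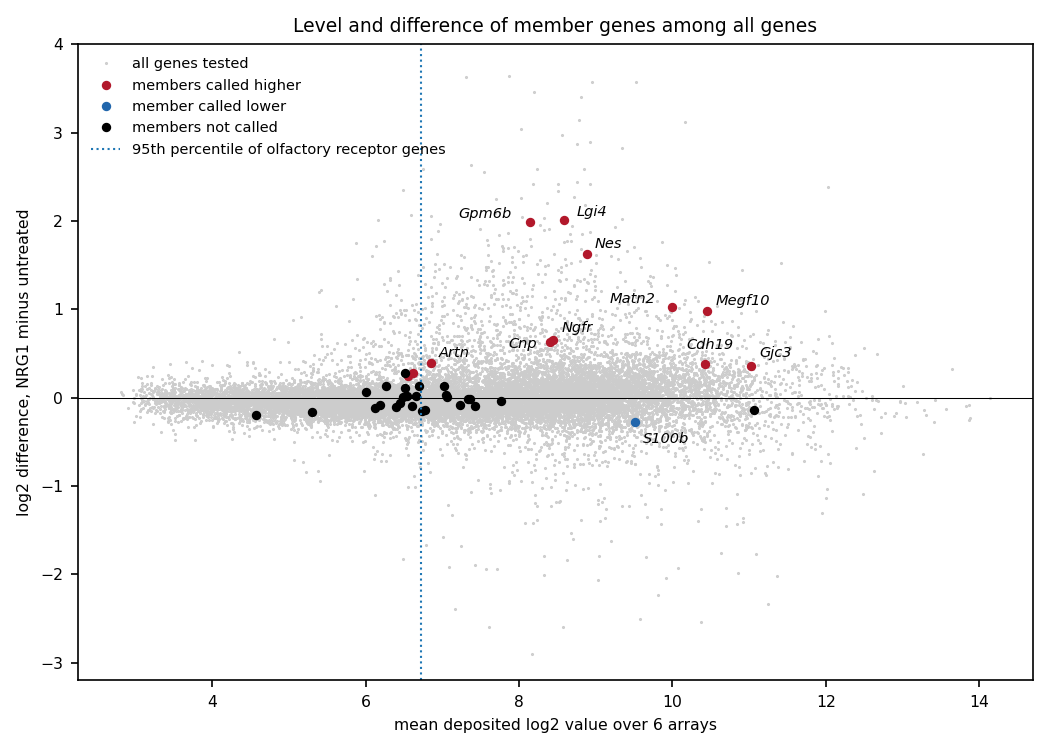
Difference, NRG1 minus untreated, on the log2 scale (y axis) against the mean log2 value over 6 arrays (x axis) for all 19938 genes (light grey) and the 39 measured genes (called higher in red, called lower in blue, not called in black). Called genes are named except Fabp7 and Gfap, the red points left of the dotted line at 6.72, the 95th percentile of olfactory receptor genes.

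Promoter sequence was available from RefSeq (GRCm38.p6) for 28 of the 39 genes, as windows from 250 bases before to 50 bases after an annotated start, and for 9 of the 13 called genes. The windows were searched on both strands for the SOX core (ACAAAG or ACAATG), for the E-boxes bound by MITF (CACGTG or CATGTG), for the AP-1 site (TGANTCA) and for an ETS site (CCGGAAG). These motifs do not overlap each other in the windows shown. The SOX core was in the windows of 2 of the 9 called genes, Gpm6b and Cnp, and in 28.6% of all windows, and the other motifs were in 0 of the 9, against 20.4% of all windows for the E-boxes, 7.81% for AP-1 and 8.86% for the ETS site. Among the 19 genes that were not called, 4 had the SOX core, 4 an E-box, 1 the AP-1 site and 0 the ETS site. A match of this kind is a description of letters and not a binding site. The windows of Gpm6b, Nes and Cnp, which rose, and of S100b, which fell, are given to show the start regions of genes with opposite outcomes, 5′ to 3′ on the plus strand, with any match to the 4 motifs in capitals. They lie at chrX:166238693-166238992, chr3:87970843-87971142, chr11:100574689-100574988 and chr10:76253586-76253885. The SOX core begins 65 bases before the start in Gpm6b and 167 bases before it in Cnp.
Gpm6b: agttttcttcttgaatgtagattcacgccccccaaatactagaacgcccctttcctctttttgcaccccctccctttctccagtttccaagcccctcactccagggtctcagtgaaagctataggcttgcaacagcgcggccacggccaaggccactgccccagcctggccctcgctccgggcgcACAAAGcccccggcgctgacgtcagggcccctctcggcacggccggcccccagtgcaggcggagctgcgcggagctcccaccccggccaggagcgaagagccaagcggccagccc
Nes: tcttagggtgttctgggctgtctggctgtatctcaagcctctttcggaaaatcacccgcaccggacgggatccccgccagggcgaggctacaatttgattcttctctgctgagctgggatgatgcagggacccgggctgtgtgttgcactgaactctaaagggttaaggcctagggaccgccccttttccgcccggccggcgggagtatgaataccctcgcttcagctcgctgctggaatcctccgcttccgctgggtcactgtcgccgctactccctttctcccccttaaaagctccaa
Cnp: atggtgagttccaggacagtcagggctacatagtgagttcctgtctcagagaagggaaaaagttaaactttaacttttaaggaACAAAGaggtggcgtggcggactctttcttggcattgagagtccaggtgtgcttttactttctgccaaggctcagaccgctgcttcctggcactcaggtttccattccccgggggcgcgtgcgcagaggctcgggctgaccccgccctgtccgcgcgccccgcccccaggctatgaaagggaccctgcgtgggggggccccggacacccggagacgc
S100b: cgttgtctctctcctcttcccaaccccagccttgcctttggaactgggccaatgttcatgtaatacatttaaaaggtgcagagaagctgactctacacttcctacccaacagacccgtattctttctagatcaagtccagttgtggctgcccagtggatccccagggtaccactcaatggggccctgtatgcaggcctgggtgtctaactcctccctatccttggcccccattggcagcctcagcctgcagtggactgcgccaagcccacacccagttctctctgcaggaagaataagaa

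Other genes of peripheral nerve and of Schwann cell control were read for comparison from lists outside the 40. Of 32 measured myelin and nerve genes, 11 rose and 8 fell, with a median difference of -0.05. Over all genes tested, 12.3% rose and 8.56% fell. Among genes above the olfactory 95th percentile, 69.6% of this list were called. The shares at that level were 45.5% for the regulators and 42.9% for the lipid synthesis genes described below, and 30.2% for all genes. The lists were drawn up with earlier results of these data known. Behind Adam23, the largest rises were those of Tspan2, a tetraspanin gene of oligodendrocytes (1.38), and Cadm4, the gene of the adhesion molecule with which Schwann cells contact axons (1.37). The largest falls were those of the neuropathy genes Ndrg1 (-1.40) and Mtmr2 (-0.52) and of the tetraspanin gene Cd82 (-0.38). Pmp2, a fatty acid-binding protein gene of peripheral myelin named after its values were seen, was at 7.03, 6.61 and 6.56 with NRG1 and at 6.01, 5.88 and 5.79 untreated, a rise of 0.84 (limma, adjusted p = 0.000486) with an untreated mean of 5.89 inside the olfactory receptor range and an NRG1 mean of 6.73 at its upper edge. Of 25 regulators of Schwann cells, 7 rose and 3 fell, with a median of 0.04. Sox10, which drives both Schwann cell and melanocyte genes, was at 10.97, 11.04 and 10.96 with NRG1 and at 10.94, 10.91 and 10.95 untreated (limma, adjusted p = 0.565). Jun, which holds Schwann cells in the immature or repair state, rose by 1.60, the chromatin enzyme genes Ezh2 and Hdac2 by 0.71 and 0.44, and Id2 fell by 1.40, Pax3 by 0.53 and Tfap2a by 0.25. Of 18 genes of sphingolipid and galactolipid synthesis, 1 rose and 5 fell, with a median of -0.06. The rise was that of the sphingomyelin synthase gene Sgms1 (0.63), and the largest falls were those of Sptlc2 (-0.78), Ugcg (-0.54) and Kdsr (-0.47), all genes of early or glucosylceramide steps.

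Markers of other cell types were read beside these results. Of the melanocyte markers, 10 of 11 fell and Sox10 was not called, and their summed linear signal was 50465 to 51850 in NRG1 arrays and 71907 to 72515 in untreated arrays. Of 9 oligodendrocyte markers, limma called 0, with 1 at an unadjusted p under 0.05, and the sums were 2856 to 3028 with NRG1 and 2693 to 2895 untreated. That 1 gene was Myrf, higher by 0.29 without overlap and not called (limma, adjusted p = 0.0501). Sox10, shared with the melanocyte list, was by far the brightest of the 9, at means of 10.99 with NRG1 and 10.93 untreated. It therefore weighed most in these sums. Olig2, Nkx2-2, Opalin, Ermn and Pdgfra were inside the olfactory receptor range. Of 8 astrocyte markers 1 rose and 2 fell, with sums of 1602 to 1677 with NRG1 and 1456 to 1585 untreated. The rise was that of the connexin gene Gja1. Without it the sums were 1200 to 1239 with NRG1 and 1356 to 1495 untreated, and 5 of the other 7 genes had lower values in all treated arrays. Aqp4, Slc1a2, Slc1a3, Aldh1l1 and Gjb6 were inside the olfactory receptor range. Of 10 neuronal markers Map2 alone was called, lower by 0.28 at means of 5.53 with NRG1 and 5.81 untreated, inside the olfactory receptor range, with sums of 753 to 781 with NRG1 and 789 to 858 untreated. Of 8 fibroblast markers Col1a1 alone was called, higher by 0.86, with sums of 1295 to 1393 with NRG1 and 1081 to 1205 untreated, and without it they overlapped, at 752 to 865 with NRG1 and 795 to 914 untreated. Dcn, Lum, Pdgfra and Pdgfrb were inside the olfactory receptor range. Of 7 macrophage markers Cd68 alone was called, higher by 0.23, with sums of 560 to 584 with NRG1 and 543 to 575 untreated. No keratinocyte marker of 8 and no endothelial marker of 6 was called by limma, and at an unadjusted p under 0.05 there were 0 and 1. The higher astrocyte and fibroblast sums with NRG1 each rested on 1 gene. The part of the lower melanocyte markers in the differences of the glial genes was not tested.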

How the data were processed

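The authors deposited log2 expression values per probe set, for which RMA and GCOS are named, per the submitters' processing notes; no version, setting or build is stated there. That the scale is log2 was judged from the range of 2.34 to 14.6. Groups came from the sample titles, and 0 value columns lacked a sample. Of 35557 probe sets, 21789 had 1 gene symbol in the platform annotation, with symbols updated through RefSeq genes of GRCm38.p6, and the brightest per gene gave 19938 genes. No filter on level was applied.

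The test was that of limma 3.58.1 (R 4.3.3; lmFit and eBayes, two-sided), adjusted by Benjamini-Hochberg over all genes, threshold 0.05. The fit was tested on simulated data. Arrays have no depth, and 3 arrays per group limit the precision (median SE 0.071 for a log2 difference). The members and lists were chosen with earlier results of these data known. All members could be named; of other lists, up to 3 called genes per direction, a few pathway genes whatever their values, and the cell type markers. Exceptions are marked. Alternatives were 2 other normalizations, 2 filters on dim genes, all or averaged probe sets, a trended robust prior, each array left out, weights per array, a replicate block, and a minimum change of 1.2-fold. Another background correction needs probe-level signals and was not run. Arrays with the same replicate number did not deviate together (correlations -0.095, -0.16 and 0.074 across genes).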

Additional observations from a re-analysis of the deposited data

How the results depend on the processing

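Lgi4, Gpm6b, Nes, Matn2, Megf10, Ngfr and Cnp were called higher under all 16 alternatives. Cdh19, Gjc3 and Artn lost their call against the minimum change of 1.2-fold and under no other alternative in which they were tested. The 12 rises became 7 against that minimum change and 10 to 11 with 1 array left out, and the single fall became 0 with all probe sets tested (limma, 2 genes lower at an unadjusted p under 0.05), 0 against the minimum change (0 lower unadjusted), 2 with an intensity trend and robust prior, and 0 to 2 with 1 array left out (0 without NRG1 replicate 3, with 2 lower unadjusted; 2 without untreated replicate 2). The added falls were Pmp22 and Ugt8a. With the replicate number as a block, 11 rose and 1 fell, and the Gfap call ended. The scalings moved no call of these genes: quantile normalization and centring left 12 and 1, with list medians of 0.027 and 0.0093. No called gene changed direction under any alternative run. The causes were not tested.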
